A study of Mus musculus with 10 samples.

Results

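Nitric oxide from inhibitory nerves of the gut wall acts on soluble guanylate cyclase, and 5 genes of the pathway behind it were followed through the transcriptomes of mouse gut cells. *Gucy1a3* and *Gucy1b3* encode the α and β subunits that pair into the enzyme, *Prkg1* encodes cGMP-dependent protein kinase I, *Mrvi1* encodes IRAG, a substrate of that kinase, and *Pde5a* encodes phosphodiesterase 5, which breaks cGMP down. They were chosen by symbol, with earlier results of these data known, and are 5 of 19214 genes and 21 of 76879 transcript variants in the series.

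RNA-seq was performed on 10 libraries, 1 per condition, from mice of 4 weeks on a C57BL/6 background. The muscle layers of jejunum and of colon each gave sorted smooth muscle cells (SMCs), sorted interstitial cells of Cajal (ICC), sorted PDGFRα+ cells and unsorted smooth muscle (SM) tissue, and the colonic mucosa gave sorted PDGFRα+ cells and unsorted mucosa. SMCs came from smMHCCre-eGFP/+ mice, in which the *Myh11* promoter drives Cre and eGFP and which therefore can also mark SMCs of vessels, and sorted SMCs of many mice were pooled into each library. ICC came from KitcopGFP/+ mice, whose reporter sits in 1 allele of the *Kit* gene. All PDGFRα+ cells and the mucosa came from PdgfraeGFP/+ mice, whose reporter sits in 1 allele of *Pdgfra*. SM tissue is labelled KitcopGFP/+, whereas the study's methods describe smMHCCre-eGFP/+ mice for it. All mice thus carried a reporter allele, and wild-type mice were not among the groups.

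In gut muscle, nitric oxide is a signal for relaxation. The cyclase makes cGMP, cGMP activates the kinase, and the kinase phosphorylates IRAG on the inositol trisphosphate receptor and proteins of the contractile apparatus, so that less calcium is released and the muscle relaxes. SMCs, ICC and PDGFRα+ cells lie close to the nerve endings and are coupled electrically, and ICC have long been studied as cells through which nitrergic signals reach the muscle.

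Levels were given as FPKM, fragments scaled to transcript length and to the mapped fragments of the library, summed over the variants of a gene. The 10 libraries listed between 15188 and 18045 genes above 0. With 1 library per condition no difference has a replicate check and no p-value exists, so every ratio compares 2 libraries and not 2 conditions. Ratios are log2 of (FPKM + 1) over (FPKM + 1) among genes with 1 FPKM or more in either library, and a gene was counted as different from 4-fold upward. Jejunum, colon and mucosa stand in separate tables, and levels set across them carry that limit.

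The sorted libraries were checked against defining markers. *Myh11*, the smooth muscle myosin heavy chain, stood at 3773 and 3807 FPKM in jejunal and colonic SMCs. In SM tissue of the same organs it stood at 3370 and 3168 FPKM. None of 10 SMC markers was 4-fold higher in SMCs than in tissue, though 9 in jejunum and 10 in colon were above it. *Kit* was at 468 and 792 FPKM in jejunal and colonic ICC, against 29.4 and 41.4 FPKM in tissue. *Pdgfra* was at 230 FPKM in colonic PDGFRα+ cells, against 47.4 FPKM in tissue, and at 228 FPKM in mucosal PDGFRα+ cells. Of 5 PDGFRα+ cell markers, 3 were at least 4-fold higher in the colonic cells than in tissue, beside 2.08% of genes. Another, *Cxcl14*, was 4-fold lower there, at 5.48 against 30.9 FPKM, beside 6.18% of genes. The library labelled jejunal PDGFRα+ cells went against its label. It held 34.0 FPKM of *Pdgfra* against 57.0 FPKM in jejunal SM tissue, and its *Myh11* level was 49.7% of that in tissue. Of the other PDGFRα+ cell markers, *P2ry1* and *Cd34* stood at 196% and 154% of tissue and *Kcnn3* and *Cxcl14* at 90.1% and 70.9%. Its 10 neuronal markers summed to 573 FPKM against 436 FPKM in tissue, and its 8 epithelial markers to 190 FPKM against 56.1 FPKM. The 7 matrix genes summed to 3619 FPKM against 2324 FPKM, with *Fbln1*, *Lum*, *Dpt* and *Dcn* between 525% and 247% of tissue and the collagens *Col1a1*, *Col1a2* and *Col3a1* between 85.8% and 66.1%. It is called the library labelled jejunal PDGFRα+ cells below, and the SMC specificity and the likeness between genes, which use it, are also given without it. Mucosal PDGFRα+ cells held the mucin gene *Muc2* at 704 FPKM, against 3301 FPKM in mucosa.

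The 2 *Prkg1* transcripts carry the isoform result below and are shown by how their coding sequences begin. The gene lies on the minus strand of chromosome 19 (chr19:30638977-31839523, mm9). The transcript NM_001013833 starts 100663 bases upstream of NM_011160, has 671 codons and encodes the protein known as PKG Iα, whereas NM_011160 has 686 codons and encodes PKG Iβ. The transcripts have 18 exons each and share the last 1750 coding bases. Only the first exon differs, with 266 coding bases in NM_001013833 (chr19:31839047-31839312, mm9) and 311 in NM_011160 (chr19:31738461-31738771, mm9). It encodes the leucine zipper through which PKG Iα binds the myosin phosphatase subunit MYPT1 and PKG Iβ binds IRAG. The first 150 coding bases of each, with the start codon in capitals, were read from the NCBIM37 (mm9) transcripts.
PKG Iα (NM_001013833): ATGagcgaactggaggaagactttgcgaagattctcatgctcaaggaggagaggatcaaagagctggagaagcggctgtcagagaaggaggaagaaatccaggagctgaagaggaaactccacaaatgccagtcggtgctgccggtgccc
PKG Iβ (NM_011160): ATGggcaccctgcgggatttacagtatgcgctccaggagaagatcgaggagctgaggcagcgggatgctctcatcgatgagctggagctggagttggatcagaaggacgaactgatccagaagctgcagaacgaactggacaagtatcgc

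The 250 bases before the start sites of the cyclase subunits and of both *Prkg1* transcripts are shown next, from RefSeq on GRCm38.p6, because the subunits shared a pattern across libraries and the kinase transcripts did not. All 5 genes matched the RefSeq table, where *Gucy1a3* and *Gucy1b3* stand under the symbols Gucy1a1 and Gucy1b1, with 8 start windows in all, and the first of the pair of *Gucy1a3* windows is printed. Capitals mark CG pairs, which stood at a median of 6 in the same 250 bases of 32851 windows.
*Gucy1a3* (chr3:82145651-82145900, minus strand): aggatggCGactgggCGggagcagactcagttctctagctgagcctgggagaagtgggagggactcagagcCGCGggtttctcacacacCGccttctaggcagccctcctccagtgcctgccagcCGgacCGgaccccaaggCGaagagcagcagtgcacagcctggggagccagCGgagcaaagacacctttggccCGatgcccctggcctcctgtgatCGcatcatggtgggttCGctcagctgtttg
*Gucy1b3* (chr3:82074712-82074961, minus strand): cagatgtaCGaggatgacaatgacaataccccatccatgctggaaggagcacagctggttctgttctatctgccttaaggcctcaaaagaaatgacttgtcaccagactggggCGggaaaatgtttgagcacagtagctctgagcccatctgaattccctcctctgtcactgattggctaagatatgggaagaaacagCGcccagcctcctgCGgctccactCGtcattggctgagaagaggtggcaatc
PKG Iα start (chr19:31765034-31765283, minus strand): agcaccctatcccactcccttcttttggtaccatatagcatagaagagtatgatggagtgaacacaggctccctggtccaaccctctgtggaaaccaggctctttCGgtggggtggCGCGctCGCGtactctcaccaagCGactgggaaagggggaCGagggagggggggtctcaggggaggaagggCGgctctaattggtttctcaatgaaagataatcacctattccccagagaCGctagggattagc
PKG Iβ start (chr19:31664371-31664620, minus strand): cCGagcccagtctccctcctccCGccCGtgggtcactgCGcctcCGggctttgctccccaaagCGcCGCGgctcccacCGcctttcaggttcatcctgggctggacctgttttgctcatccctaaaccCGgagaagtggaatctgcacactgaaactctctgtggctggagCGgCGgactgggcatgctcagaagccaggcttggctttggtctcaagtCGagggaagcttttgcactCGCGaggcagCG

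The *Gucy1a3* window held 12 CG pairs and the *Gucy1b3* window 5. The PKG Iα window held 9 and the PKG Iβ window 16, while the other windows ranged between 1 for the second *Mrvi1* start and 22 for *Pde5a*. Letters of 3 motifs were searched on both strands of the windows extended by 50 bases past the start. The CRE core TGACG was present 1 time, in the window of *Gucy1b3*, and in 20.8% of all windows. Neither the CArG box consensus bound by serum response factor, present in 1.63% of all windows, nor TATAAA, present in 13.6%, was found in any of the 8. CArG-like boxes with 1 base off the consensus, which the study's own search also counts, were not searched.

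*Gucy1a3*, the α subunit, was at 285 FPKM in colonic ICC and 289 FPKM in colonic PDGFRα+ cells, against 66.1 FPKM in colonic SM tissue. Colonic SMCs held 16.7 FPKM. In jejunum it was at 9.79 FPKM in SMCs and 21.6 FPKM in ICC, against 61.5 FPKM in SM tissue. The library labelled jejunal PDGFRα+ cells held 70.7 FPKM, and the mucosal PDGFRα+ cells 36.4 FPKM against 7.06 FPKM in mucosa. The level was thus lower in SMCs than in the tissue of both organs, and among the sorted cells of the muscle layers it passed 4 times the tissue level in colonic ICC and colonic PDGFRα+ cells. The highest library stood 40.9-fold above the lowest, which was mucosa for each of the 5 genes.

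*Gucy1b3*, the β subunit that carries the heme to which nitric oxide binds, followed the α subunit. It was at 184 FPKM in colonic ICC and 170 FPKM in colonic PDGFRα+ cells, with 17.8 FPKM in colonic SMCs, against 51.9 FPKM in colonic SM tissue. In jejunum it was at 25.7 FPKM in SMCs, 23.7 FPKM in ICC and 62.4 FPKM in the library labelled PDGFRα+ cells, against 73.7 FPKM in SM tissue. Mucosal PDGFRα+ cells held 47.3 FPKM, against 5.76 FPKM in mucosa. Jejunal SMCs and ICC were nearly level, while in colon the ICC stood well above the SMCs.

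The subunits lie next to each other on the minus strand of chromosome 3, *Gucy1b3* at chr3:81835340-81878633 and *Gucy1a3* at chr3:81896346-81950388 (mm9), with 17712 bases between them. The α level divided by the β level was 0.381 in jejunal SMCs, 0.912 in jejunal ICC and 0.835 in jejunal SM tissue. In colon it was 0.937 in SMCs, 1.55 in ICC and 1.70 in PDGFRα+ cells, against 1.27 in SM tissue. Jejunal SMCs thus had the lowest α level per β of the 10 libraries and colonic PDGFRα+ cells the highest.

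**Figure D1:**
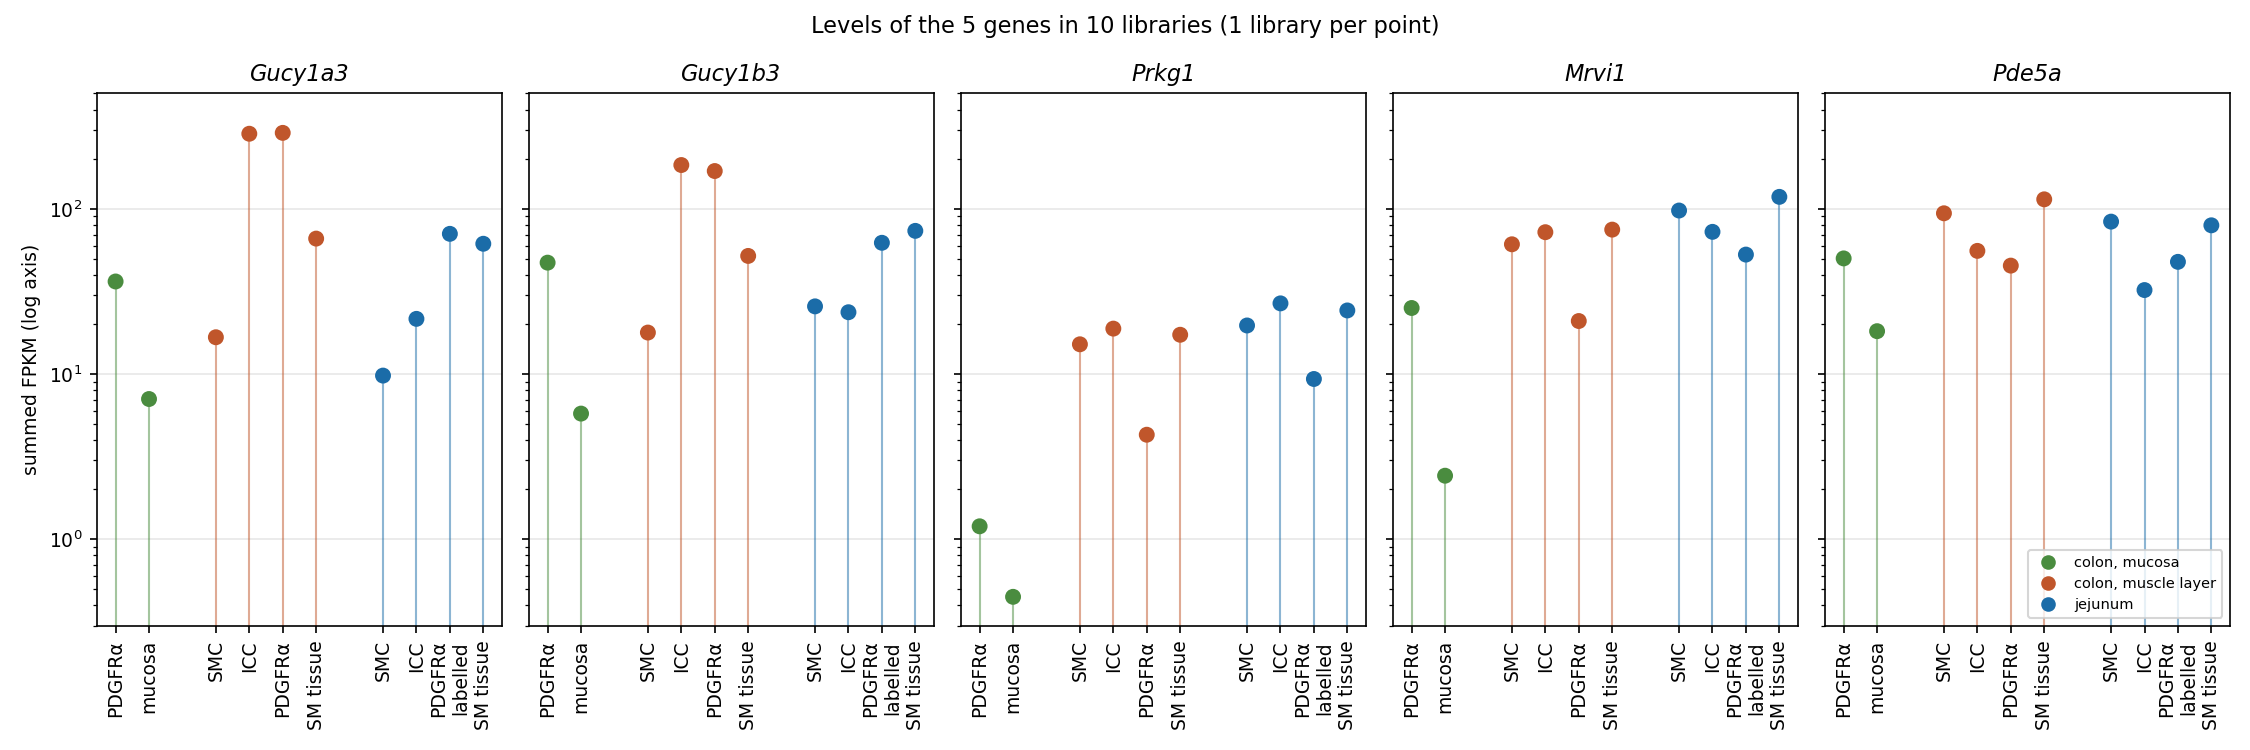
FPKM of each gene (log axis) in the 10 libraries, 1 point per library, with colonic mucosa in green, colonic muscle layer in orange and jejunum in blue. *Gucy1a3* reaches 285 and 289 FPKM in colonic ICC and PDGFRα+ cells, whereas *Prkg1* and *Mrvi1* are lowest among colonic muscle libraries in PDGFRα+ cells and *Pde5a* spans only 6.29-fold.

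Set against tissue, jejunal SMCs had 1 of the 5 genes at least 4-fold lower, *Gucy1a3* with a log2 ratio of −2.53. Of 12460 genes compared, 3.48% were lower and 0.297% higher by that measure. *Gucy1b3* was lower by a log2 ratio of −1.48, and *Prkg1*, *Mrvi1* and *Pde5a* had log2 ratios of −0.29, −0.27 and 0.07. In colonic SMCs none of the 5 passed 4-fold, beside 5.3% of genes lower and 0.149% higher, with log2 ratios of −1.92 for *Gucy1a3* and −1.49 for *Gucy1b3*. On known transcripts alone *Gucy1a3* did pass it there, at −2.78, and on TPM, values rescaled to one library total, at −2.11. The other three lay between −0.29 and −0.18. In both organs, the 2 cyclase subunits were thus the genes in which SMCs departed most from tissue. In bulk libraries, fewer cells of a type and less RNA per cell cannot be told apart.

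Immediate-early and heat shock genes summed to more in sorted SMCs, ICC and colonic PDGFRα+ cells than in tissue. The 9 genes of that list, all above 0, summed to 915 FPKM in jejunal SMCs against 264 FPKM in jejunal SM tissue, and to 596 FPKM in colonic SMCs against 159 FPKM in colonic SM tissue. Jejunal ICC held 575 FPKM of them, colonic ICC 669 FPKM and colonic PDGFRα+ cells 805 FPKM, against the same tissues, while the library labelled jejunal PDGFRα+ cells held 263 FPKM. At least 4-fold higher than tissue were 3 of the 9 in jejunal SMCs, beside 0.297% of all genes, 4 in colonic SMCs, beside 0.149%, 2 in jejunal ICC, beside 1.62%, 5 in colonic ICC, beside 1.43%, and 4 in colonic PDGFRα+ cells, beside 2.08%. All 9 were above tissue in SMCs of both organs, whereas *Atf3* and *Jun* were below it in ICC of both organs and *Atf3* in colonic PDGFRα+ cells. Mucosal PDGFRα+ cells held 1476 FPKM, against 566 FPKM in mucosa. Pericyte markers, which vascular SMCs share in part, were at 1189 FPKM in jejunal SMCs against 1573 FPKM in tissue, and at 1019 FPKM in colonic SMCs against 1008 FPKM in tissue, with all 7 above 0. Their part in the results was not tested.

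Colonic ICC had 1 of the 5 genes at least 4-fold higher than colonic SM tissue, *Gucy1a3* with a log2 ratio of 2.09, where 1.43% of 13105 genes were higher. With scaling by the median ratio of all genes it was 1.88 and short of 4-fold. None of the 5 was 4-fold lower, beside 4.4% of genes. *Gucy1b3* had a log2 ratio of 1.81, *Prkg1* of 0.12 and *Mrvi1* of −0.05, whereas *Pde5a* was lower at −1.02. Colonic ICC therefore held more RNA of both cyclase subunits than tissue, about as much of the kinase and IRAG, and less of phosphodiesterase 5.

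Jejunal ICC showed the cyclase on the other side of tissue. *Gucy1a3* had a log2 ratio of −1.47 to jejunal SM tissue and *Gucy1b3* of −1.60, and *Pde5a* was at −1.28. None of the 5 passed 4-fold, beside 2.72% of 12742 genes lower and 1.62% higher. *Prkg1* was at 0.14 and *Mrvi1* at −0.70. Among 12481 genes compared in both organs, 87, or 0.697%, moved at least 2-fold in opposite directions in jejunal and colonic ICC, and both cyclase subunits were among them.

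Between the ICC of both organs, 2 of the 5 genes were at least 4-fold higher in colonic ICC than in jejunal ICC, beside 2.26% of 12372 genes, and none was 4-fold lower, beside 1.75%. The log2 ratios were 3.66 for *Gucy1a3* and 2.91 for *Gucy1b3*, and those of *Prkg1*, *Mrvi1* and *Pde5a* were −0.49, −0.01 and 0.77. SM tissue of the same organs differed far less, with log2 ratios of colonic over jejunal tissue of 0.10 and −0.50 for the subunits and none of the 5 past 4-fold, beside 0.616% of genes higher and 0.257% lower. Colonic over jejunal SMCs likewise gave 0.71 and −0.50, with none past 4-fold, beside 0.557% higher and 0.442% lower.

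Markers of PDGFRα+ cells stood higher in colonic than in jejunal ICC in part. *Pdgfra* was at 42.2 FPKM in colonic ICC and 5.63 FPKM in jejunal ICC, and the 5 markers of that list, all above 0, summed to 83.8 FPKM in colonic and 97.2 FPKM in jejunal ICC. Measured against colonic PDGFRα+ cells, colonic ICC held 18.4% of their *Pdgfra*, 2.48% of *Kcnn3*, a calcium-activated potassium channel gene of these cells, 4.65% of the purine receptor gene *P2ry1* and 3.10% of *Cd34*, but 532% of *Cxcl14*. Of the 7 matrix genes they held 0.923% of *Fbln1*, 5.11% of *Dcn*, 5.74% of *Lum* and 9.60% of *Dpt*, and 23.4%, 36.9% and 66.7% of the collagens *Col1a1*, *Col1a2* and *Col3a1*. The same ratio was 98.8% for *Gucy1a3* and 109% for *Gucy1b3*. The matrix genes summed to 3753 FPKM in colonic ICC, against 555 FPKM in jejunal ICC. Across the separate tables, 4 of the 7, the collagens and *Dpt*, were at least 4-fold higher in colonic ICC, as were *Pdgfra* and *P2ry1*. Beside these, 2.26% of 12372 genes were higher by that measure. The part of these markers in the cyclase levels of colonic ICC was not tested.

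Colonic PDGFRα+ cells combined a *Gucy1a3* level close to that of colonic ICC with low *Prkg1*. Against colonic SM tissue, 1 of the 5 genes was at least 4-fold higher, beside 2.08% of 12990 genes, with log2 ratios of 2.11 for *Gucy1a3* and 1.69 for *Gucy1b3*. None was 4-fold lower, beside 6.18% of genes, but *Prkg1*, *Mrvi1* and *Pde5a* were all lower, at −1.79, −1.79 and −1.31. The 3 genes that act after cGMP was made were thus below the tissue level in these cells. Colonic ICC over these cells gave a log2 ratio of −0.02 for *Gucy1a3*, and of 0.17 on TPM, so that the order of these libraries depended on the scaling. The library labelled jejunal PDGFRα+ cells had log2 ratios of 0.20, −0.24, −1.29, −1.15 and −0.72 to tissue, in the same gene order, with none past 4-fold, beside 0.913% of genes higher and 0.14% lower.

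**Figure D2:**
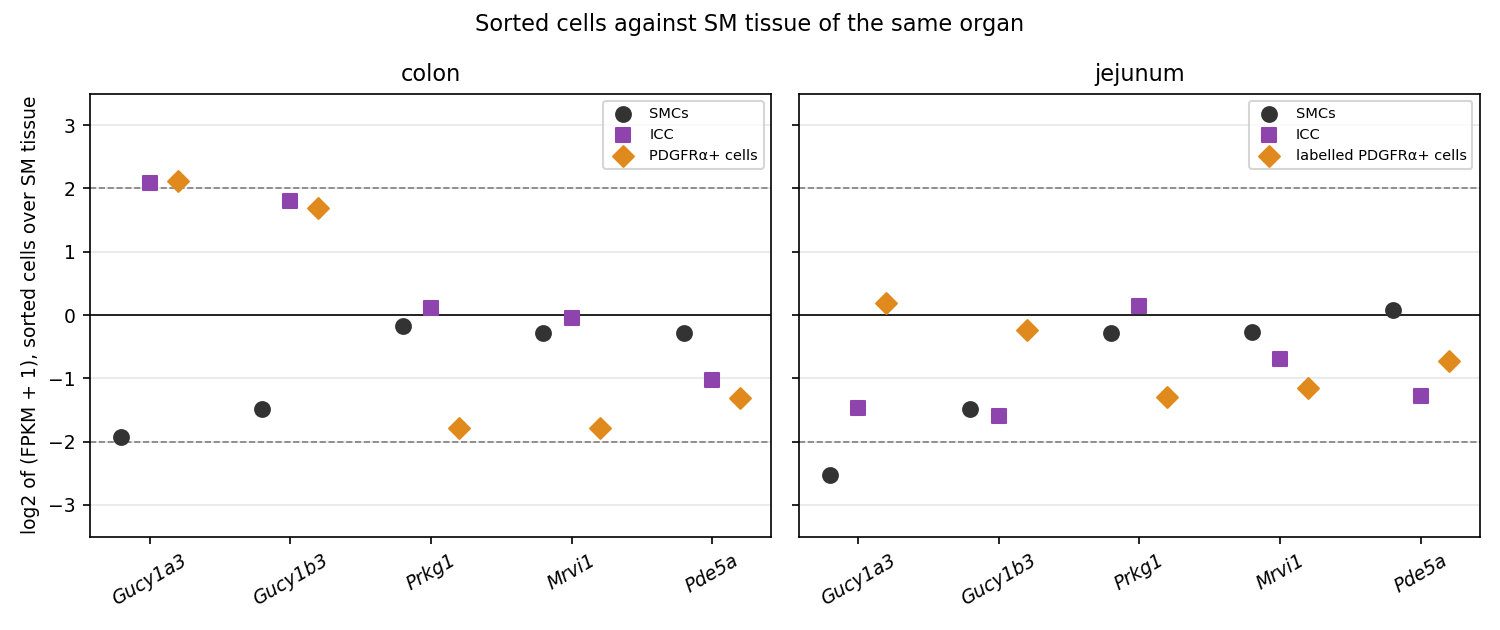
Log2 ratio of (FPKM + 1) in sorted SMCs (circles), ICC (squares) and PDGFRα+ cells (diamonds) over SM tissue of the same organ, for the 5 genes, 1 library against 1, with dashed lines at 4-fold. In colon the *Gucy1a3* points of ICC (2.09) and PDGFRα+ cells (2.11) lie above the line, while in jejunum the ICC point lies at −1.47.

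Set directly against interstitial cells, colonic SMCs had 2 of the 5 genes at least 4-fold lower than colonic ICC, with log2 ratios of −4.02 for *Gucy1a3* and −3.30 for *Gucy1b3*, beside 4.5% of 12234 genes lower and 2.57% higher. The same 2 genes were 4-fold lower than in colonic PDGFRα+ cells, at −4.03 and −3.18, beside 5.43% of 11923 genes lower and 3.63% higher. Over PDGFRα+ cells, *Prkg1*, *Mrvi1* and *Pde5a* had higher levels in colonic SMCs, with log2 ratios of 1.61, 1.50 and 1.04. In jejunum, none of the 5 differed 4-fold between SMCs and ICC, beside 2.42% of genes higher and 3.59% lower, and the log2 ratio of *Gucy1a3* was −1.07, or −3.06 on known transcripts alone. Against the library labelled jejunal PDGFRα+ cells, 1 gene was 4-fold lower in SMCs, *Gucy1a3* at −2.73, beside 5.34% of 12620 genes lower and 0.325% higher. Jejunal ICC over the same library had none of the 5 past 4-fold, beside 1.99% of genes higher and 3.97% lower.

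The SMC level divided by the sum of the ICC and PDGFRα+ cell levels, a measure of SMC specificity that the study uses, was lowest for the cyclase subunits and highest for *Pde5a* in both organs. In colon it was 0.0291 for *Gucy1a3*, 0.0504 for *Gucy1b3*, 0.655 for both *Prkg1* and *Mrvi1*, and 0.931 for *Pde5a*, where the median of all genes was 0.357. In jejunum the values were 0.106, 0.299, 0.545, 0.779 and 1.05, where the median was 0.426. Only *Pde5a* in jejunum was above 1, as were 5.25% of all genes, and none of the 5 was in colon, beside 7.58% of all genes. Without the library labelled jejunal PDGFRα+ cells, SMCs over ICC alone gave 0.453, 1.09, 0.735, 1.35 and 2.60 in jejunum, which put *Gucy1b3* above *Prkg1*.

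*Prkg1*, the kinase, was at 19.7 FPKM in jejunal SMCs and 26.8 FPKM in jejunal ICC, against 24.3 FPKM in SM tissue. In colon it was at 15.1 FPKM in SMCs, 18.8 FPKM in ICC and 4.29 FPKM in PDGFRα+ cells, against 17.3 FPKM in SM tissue. The library labelled jejunal PDGFRα+ cells held 9.34 FPKM. Muscle-layer libraries other than PDGFRα+ cells thus lay within a narrow band, and mucosal PDGFRα+ cells with 1.20 FPKM and mucosa with 0.448 FPKM were far below it. Colonic ICC over colonic PDGFRα+ cells gave the widest ratio within a table for this gene, with a log2 of 1.91 and none of the 5 genes past 4-fold, beside 2.44% of genes higher and 2.08% lower. With a pseudocount of 0.1 FPKM it was 2.11 and past 4-fold.

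The 2 kinase transcripts divided by organ. The PKG Iα transcript was at 0.503 FPKM in colonic SMCs, against 7.44 FPKM in jejunal SMCs. In SM tissue it was at 1.17 FPKM in colon, against 9.34 FPKM in jejunum. It made up 3.32% of the gene in colonic SMCs and 6.77% in colonic SM tissue, against 37.8% in jejunal SMCs and 38.5% in jejunal SM tissue. The PKG Iβ transcript was nearly level, at 14.6 FPKM in colonic SMCs against 12.2 FPKM in jejunal SMCs, and at 16.1 FPKM in colonic against 14.9 FPKM in jejunal SM tissue. The organ difference in the muscle thus lay in PKG Iα.

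ICC carried almost only PKG Iβ in both organs. The PKG Iα transcript was at 0.0863 FPKM in colonic ICC and made up 0.458% of the gene, beside 18.8 FPKM of PKG Iβ. In jejunal ICC it was at 1.13 FPKM and made up 4.21%, beside 25.7 FPKM of PKG Iβ. Within jejunum, SMCs therefore had more PKG Iα and less PKG Iβ than ICC. Colonic PDGFRα+ cells had 0.118 FPKM of PKG Iα and 4.17 FPKM of PKG Iβ, and the library labelled jejunal PDGFRα+ cells 2.12 and 7.22 FPKM. In mucosal PDGFRα+ cells PKG Iα made up 65.8% of a gene at 1.20 FPKM, and in mucosa 33.2% at 0.448 FPKM, levels at which a share rests on little RNA. As the transcripts differ in the first exon alone, their division rests on the reads from its bases, and the deposited values give no interval for it.

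**Figure D3:**
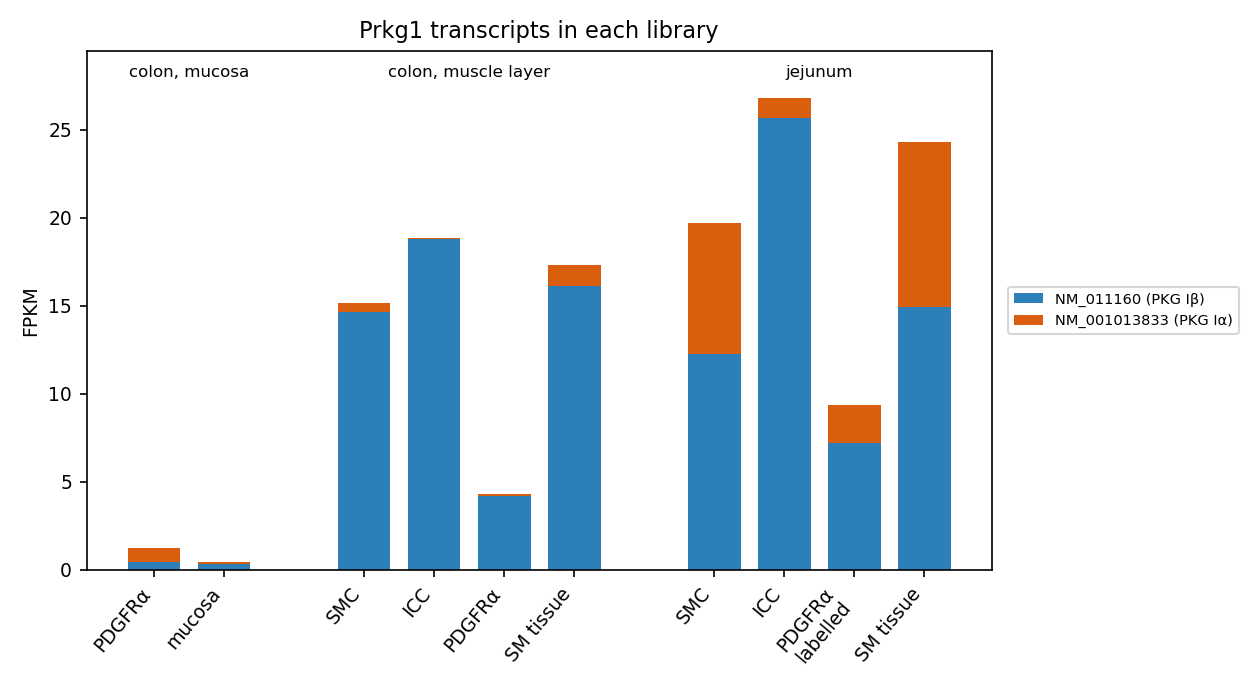
FPKM of the *Prkg1* transcripts for PKG Iβ (NM_011160, blue) and PKG Iα (NM_001013833, orange), stacked, in each of the 10 libraries. PKG Iα takes 3.32% of the bar in colonic SMCs and 4.21% in jejunal ICC, but 37.8% in jejunal SMCs and 38.5% in jejunal SM tissue.

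*Mrvi1*, whose product IRAG joins PKG Iβ to the inositol trisphosphate receptor, stood above *Prkg1* in all 10 libraries. It was at 97.8 FPKM in jejunal SMCs and 72.7 FPKM in jejunal ICC, against 118 FPKM in jejunal SM tissue. In colon it was at 61.1 FPKM in SMCs, 72.3 FPKM in ICC and 21.0 FPKM in PDGFRα+ cells, against 74.9 FPKM in SM tissue. It stood at 52.9 FPKM in the library labelled jejunal PDGFRα+ cells, at 25.1 FPKM in mucosal PDGFRα+ cells and at 2.42 FPKM in mucosa. ICC of both organs had nearly the same level, in contrast to the cyclase subunits.

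The *Mrvi1* level divided by the *Prkg1* level stayed between 2.71 in jejunal ICC and 5.67 in the library labelled jejunal PDGFRα+ cells over the 8 muscle-layer libraries. In mucosal PDGFRα+ cells it was 21.0 and in mucosa 5.41. Of its 5 variants (chr7:118011781-118125609, mm9, minus strand), the known transcript NM_194464 made up 45.7% to 64.4% of the gene in the 8 muscle-layer libraries. The known transcript NM_010826 made up at most 2.37% there and 14.5% in mucosa. An exon of the antisense gene *Gm16336* overlaps 1 exon of *Mrvi1*, and without strand in the libraries their reads cannot be told apart there.

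*Pde5a*, the phosphodiesterase that sildenafil inhibits, was the 1 gene of the 5 that was highest in SMCs among the sorted muscle-layer cells of both organs. It was at 83.8 FPKM in jejunal SMCs and 32.3 FPKM in jejunal ICC, against 79.6 FPKM in SM tissue. In colon it was at 94.1 FPKM in SMCs, 55.7 FPKM in ICC and 45.4 FPKM in PDGFRα+ cells, against 114 FPKM in SM tissue. The library labelled jejunal PDGFRα+ cells held 47.8 FPKM, mucosal PDGFRα+ cells 50.2 FPKM and mucosa 18.2 FPKM. Its range of 6.29-fold over the 10 libraries was the narrowest of the 5.

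Relative to *Gucy1b3*, the phosphodiesterase differed widely among cells. *Pde5a* divided by *Gucy1b3* was 5.28 in colonic SMCs, 0.302 in colonic ICC and 0.267 in colonic PDGFRα+ cells, against 2.20 in colonic SM tissue. In jejunum it was 3.26 in SMCs and 1.36 in ICC, against 1.08 in SM tissue. Of the 5 variants of *Pde5a* (chr3:122432076-122562294, mm9, plus strand), a variant of 4638 bases made up 51.4% of the gene in jejunal SMCs, 51.2% in jejunal ICC and 37.7% in jejunal SM tissue. The known transcript of 6728 bases made up 37.3%, 26.6% and 45.0% in the same libraries. In colon the shorter one made up 46.2% in SMCs and 35.6% in tissue.

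*Gucy1a3* was divided among 6 variants with 4 start sites, and SMCs differed in their make-up from the other cells. The known transcript of 4654 bases made up 8.35% of the gene in jejunal SMCs and 30.8% in colonic SMCs, against 60.5% in jejunal and 62.2% in colonic SM tissue. In ICC and colonic PDGFRα+ cells it made up 60.9% to 65.4%. A variant of 4652 bases with a start site of its own, variant 793 in the plot of *Gucy1a3* variants, made up 46.9% in jejunal SMCs and 30.3% in colonic SMCs, against 4.98% and 6.02% in the tissues. It made up 1.39% in jejunal ICC, 0.0239% in colonic ICC and 3.10% in colonic PDGFRα+ cells.

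In absolute level this variant held 4.59 FPKM in SMCs against 3.06 FPKM in tissue of jejunum, and 5.06 FPKM in SMCs against 3.98 FPKM in tissue of colon. Its level was higher still in colonic PDGFRα+ cells, at 8.95 FPKM, so it was not particular to SMCs. Jejunal ICC held 0.299 FPKM of it and colonic ICC 0.0682 FPKM. The known transcript held 0.817 FPKM in SMCs against 37.2 FPKM in tissue of jejunum, and 5.14 FPKM in SMCs against 41.1 FPKM in tissue of colon. A short variant of 2731 bases held 3.15 FPKM in SMCs against 20.4 FPKM in tissue of jejunum, and 6.40 FPKM in SMCs against 20.5 FPKM in tissue of colon. It made up 30.5% to 42.3% of the gene in all 10 libraries. The lower *Gucy1a3* of SMCs thus lay in the known and the short transcript, and the variant with the separate start was not lower than in tissue. Exon borders of the assembled variants are not among the deposited values, and the division among variants is the assembler's estimate.

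**Figure D4:**
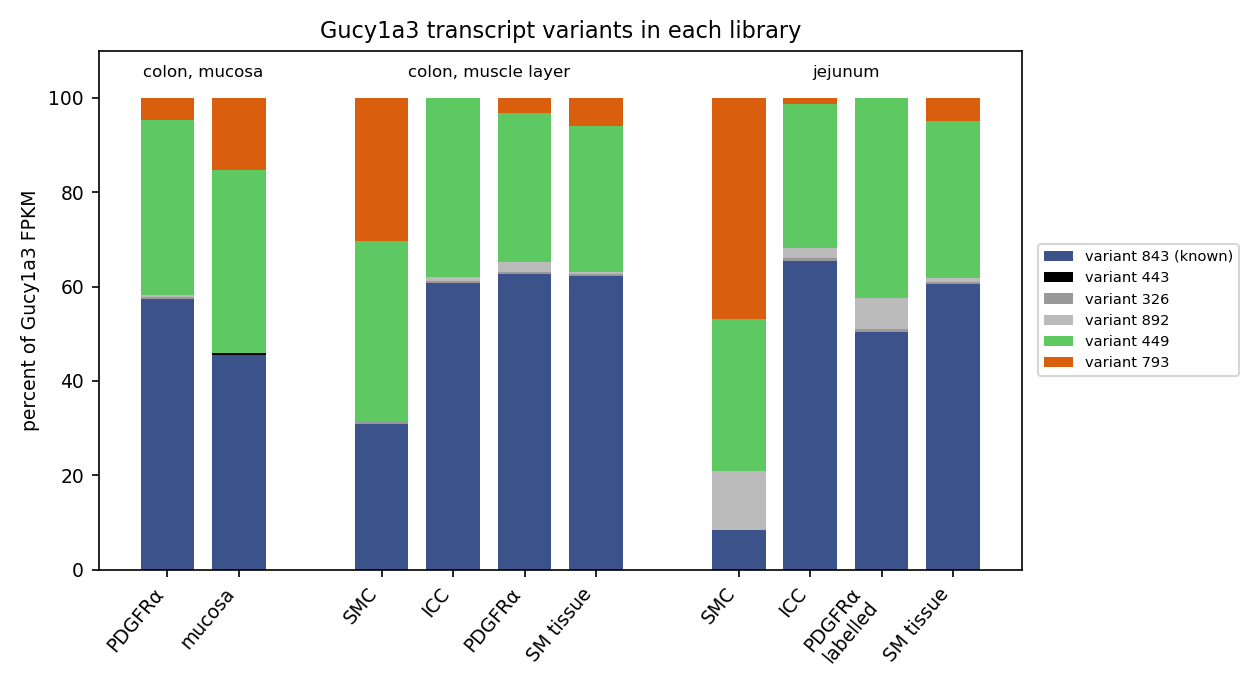
Share of each transcript variant in the summed *Gucy1a3* FPKM, stacked to 100 percent, in each of the 10 libraries, variants named by the last digits of their identifiers. The variant in orange takes 46.9% and 30.3% in jejunal and colonic SMCs, where the known transcript in dark blue shrinks to 8.35% and 30.8%.

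In mucosal PDGFRα+ cells 3 of the 5 genes were at least 4-fold higher than in mucosa, beside 5.5% of 12840 genes, and none was 4-fold lower, beside 1.64%. The log2 ratios were 2.21 for *Gucy1a3*, 2.84 for *Gucy1b3* and 2.93 for *Mrvi1*, while *Pde5a* was at 1.42 and *Prkg1* at 0.60. Set against PDGFRα+ cells of colonic muscle, *Gucy1a3* was lower at −2.96, the 1 gene of the 5 past 4-fold downward, beside 2.98% of 12656 genes lower and 6.36% higher. *Gucy1b3* was at −1.82 and *Prkg1* at −1.27, and *Mrvi1* and *Pde5a* were nearly level at 0.25 and 0.14. Mucosa against colonic SM tissue had all 5 lower by at least 4-fold, beside 9.38% of 13608 genes lower and 7.88% higher, with log2 ratios between −4.47 for *Mrvi1* and −2.59 for *Pde5a*. The 8 epithelial markers, all above 0, summed to 1862 FPKM in mucosal PDGFRα+ cells and 14.8 FPKM in colonic PDGFRα+ cells. Over mucosa, 4 of 9 SMC markers and 3 of 7 pericyte markers compared were at least 4-fold higher in mucosal PDGFRα+ cells. None of either list was 4-fold lower. Beside these, 5.5% of all genes were higher and 1.64% lower by that measure. The part of these markers in the ratios was not tested.

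Other genes of the pathway, 73 in all without the 5, were counted from lists of nitric oxide synthesis, cyclases and their ligands, kinases, phosphodiesterases, channels, receptors and kinase targets. In SMCs of both organs 0 of them were at least 4-fold higher than tissue and 4 were lower, *Nos1*, *Ass1*, *Ddah1* and *Itpr3*, of 45 compared in jejunum and 48 in colon. Among all genes, 3.48% were lower and 0.297% higher in jejunal SMCs, and 5.3% lower and 0.149% higher in colonic SMCs. The median log2 ratio was −0.40 in jejunal SMCs, where that of all genes was −0.15, and −0.35 in colonic SMCs, where it was −0.32. *Nos1*, the neuronal nitric oxide synthase, was at 0.737 FPKM in jejunal SMCs against 18.5 FPKM in jejunal SM tissue, and at 1.89 FPKM in colonic SMCs against 42.7 FPKM in colonic SM tissue. The 10 neuronal markers were at 30.4 FPKM in jejunal SMCs against 436 FPKM in tissue, and at 46.5 FPKM in colonic SMCs against 632 FPKM in tissue.

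Targets of the kinase were mostly lower than in tissue in ICC, and in colonic PDGFRα+ cells as well. Of 16 targets compared, 8 were at least 4-fold lower in jejunal ICC, beside 2.72% of all genes, and 8 in colonic ICC, beside 4.4%, with a median log2 ratio of −2.05 in jejunum and −1.96 in colon, where the medians of all genes were 0.04 and 0.14. None was 4-fold higher in jejunal ICC, beside 1.62% of all genes, and 1 was in colonic ICC, *Atp2a2*, beside 1.43%. In colonic PDGFRα+ cells 11 of 16 were at least 4-fold lower, beside 6.18% of all genes, and none was higher, beside 2.08%. Their median log2 ratio was −2.63, where that of all genes was −0.11. The lower ones included the contractile genes *Mylk* and *Cnn1*, and the SMC marker *Myh11* was itself at 249 FPKM in jejunal ICC against 3370 FPKM in tissue. *Ppp1r12a*, which encodes the MYPT1 subunit that PKG Iα binds, was at 99.4 FPKM in jejunal ICC against 501 FPKM in tissue, and at 75.9 FPKM in colonic ICC against 309 FPKM in tissue. *Kcnma1*, the large-conductance calcium-activated potassium channel, was at 2.48 FPKM in jejunal ICC against 37.5 FPKM in tissue.

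*Itpr1*, the inositol trisphosphate receptor that IRAG binds, stood above tissue in colonic ICC and colonic PDGFRα+ cells but below it in jejunal ICC. It was at 52.2 FPKM in colonic ICC and 114 FPKM in colonic PDGFRα+ cells, with 22.3 FPKM in colonic SMCs, against 35.0 FPKM in colonic SM tissue. In jejunum it was at 32.2 FPKM in SMCs and 25.4 FPKM in ICC, against 41.2 FPKM in SM tissue. *Pln*, phospholamban, which restrains the calcium pump of the sarcoplasmic reticulum, was at 3.85 FPKM in colonic ICC, against 203 FPKM in jejunal ICC. *Atp2a2*, the pump itself, was at 848 FPKM in colonic ICC, against 133 FPKM in jejunal ICC.

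Of 9 other phosphodiesterases compared, 3 were at least 4-fold lower in SMCs than in ICC of both organs, where 3.59% of all genes were lower in jejunum and 4.5% in colon. In jejunum *Pde2a* was lower as well, and *Pde1b* was 4-fold higher, at 18.6 FPKM in SMCs against 3.76 FPKM in ICC, beside 2.42% of all genes higher. *Pde3a*, which cGMP inhibits, was at 16.3 FPKM in SMCs against 224 FPKM in ICC of jejunum, and at 24.3 FPKM in SMCs against 133 FPKM in ICC of colon. *Pde9a*, which is specific for cGMP, was at 12.1 FPKM in SMCs against 131 FPKM in ICC of jejunum, and at 17.1 FPKM in SMCs against 162 FPKM in ICC of colon. *Pde1a*, which calcium and calmodulin activate, was at 6.51 FPKM in SMCs against 42.5 FPKM in ICC of jejunum, and at 6.49 FPKM in SMCs against 41.2 FPKM in ICC of colon. Among the listed phosphodiesterases, which leave out the families specific for cAMP, *Pde5a* was the most abundant in SMCs of both organs, *Pde3a* in jejunal ICC and *Pde9a* in colonic ICC.

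The phosphodiesterases also differed among interstitial cells. *Pde1b* was at 40.5 FPKM in colonic ICC, against 3.76 FPKM in jejunal ICC, and at 87.5 FPKM in colonic PDGFRα+ cells. *Pde2a*, which cGMP activates, was at 80.2 FPKM in colonic ICC, against 3.92 FPKM in colonic PDGFRα+ cells, and at 79.8 FPKM in jejunal ICC. Of 9 phosphodiesterases compared, 3 were at least 4-fold higher and 2 lower in jejunal ICC than in jejunal SM tissue, beside 1.62% of all genes higher and 2.72% lower. In colonic ICC, 1 was higher and none lower than in colonic SM tissue, beside 1.43% and 4.4% of all genes.

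**Figure D5:**
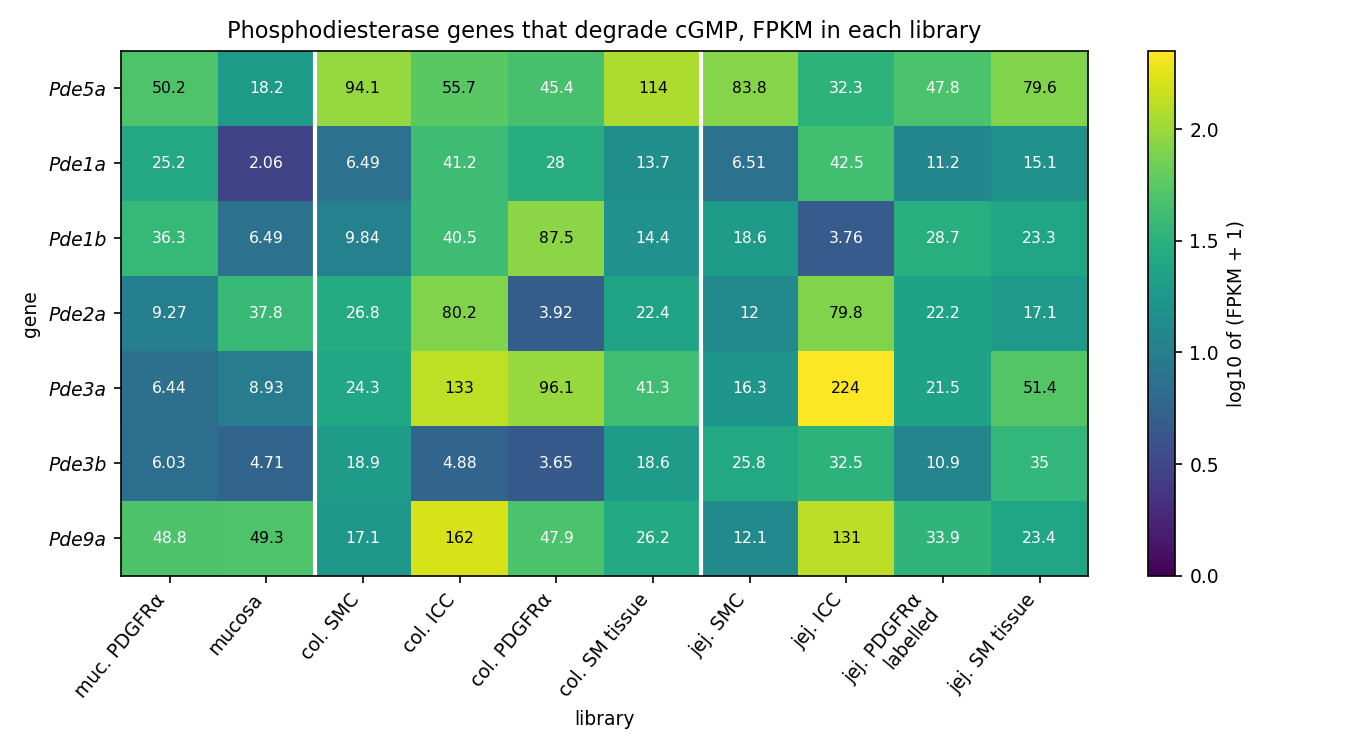
FPKM of *Pde5a* and 6 further phosphodiesterase genes (rows) in the 10 libraries (columns), with the FPKM printed in each cell and colour giving log10 of (FPKM + 1). Among the genes shown, *Pde5a* leads in SMCs, at 83.8 and 94.1 FPKM, and *Pde3a* and *Pde9a* lead in ICC.

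Other subunits of the cyclase were scarce. *Gucy1a2*, an alternative α subunit, was at most 3.04 FPKM, in colonic SM tissue, and *Gucy1b2* at most 0.0870 FPKM, in jejunal SM tissue. *Prkg2*, the second cGMP-dependent kinase, was at most 3.49 FPKM, in mucosa. *Npr2*, a receptor that makes cGMP on binding natriuretic peptide, held 23.7 FPKM in SMCs against 25.9 FPKM in tissue of jejunum, and 26.4 FPKM in SMCs against 31.8 FPKM in tissue of colon.

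The genes whose levels most resembled each of the 5 were ranked by Pearson's r of log2(FPKM + 1) over the 10 libraries among 8957 genes, as a description over points that share tables and cell sources. *Gucy1b3* was the nearest gene to *Gucy1a3* (r = 0.954), before *Fibin* (0.951) and *App* (0.947). For *Gucy1b3* they were *Reck* (0.976), *Gucy1a3* (0.954) and *Map3k3* (0.947). *Fibin* stood at 203 FPKM in colonic ICC and 607 FPKM in colonic PDGFRα+ cells, and at 29.1 FPKM in jejunal ICC. The nearest genes to *Prkg1* were *Angptl1* (0.981), *Macf1* (0.981) and *Zfand2a* (0.977).

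For *Mrvi1* they were *Ap1m1* (0.980), *Bnip2* (0.976) and *Ncs1* (0.976). For *Pde5a* they were *Parva* (0.977), *Ptpn14* (0.975) and *Mrgprf* (0.962). Of these 15 entries, 9 remained without the library labelled jejunal PDGFRα+ cells and 1 over the 8 muscle-layer libraries. Among the 5 genes, *Prkg1* and *Mrvi1* had an r of 0.913, and *Gucy1a3* had an r of 0.177 with *Prkg1*, 0.253 with *Mrvi1* and 0.192 with *Pde5a*. Without that library the same values were 0.915, 0.178, 0.247 and 0.208. The 5 genes of one pathway therefore did not share one pattern across the cells.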

How the data were processed

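RNA-seq of 10 libraries, 1 per condition, was used. Per the study's methods and the submitters' processing notes, the authors aligned paired-end reads of poly(A) RNA to mm9 with TopHat 1.4.1 and used Cufflinks 2.0.2 for assembly and quantification, and kept transcripts that were known or shared a splice junction with a known one. The deposited values are FPKM per transcript variant in 3 separately made tables, without counts or intervals, so the depth behind a value is unknown here. Values below 0.025 FPKM were set to 0, as the study's methods state, and variants of a symbol were summed. Ratios used a pseudocount of 1 FPKM and genes from 1 FPKM in either library. The 4-fold threshold gave calls, and no test across libraries was run. The ratio and call steps were tested on simulated data, and the summing of variants was not. Python 3.11.15, pandas 2.3.3, numpy 2.4.6 and matplotlib 3.10.9 were used.

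The identity of the *Prkg1* transcripts was taken from the deposited RefSeq names, and the length of NM_001013833 rebuilt from the annotation matched the deposited 6978 bases. Protein sequences were not used here. Alternatives were other pseudocounts, cutoffs and filters, known transcripts only, scaling to TPM or by the median ratio, a 2-fold threshold and other reference cells for SMC specificity. Genes named beside the 5 reached 10 FPKM in a library or passed 4-fold between sorted cells, and *Gucy1a2*, *Gucy1b2* and *Prkg2* were added after their values were seen. The 5 genes and all lists were chosen with earlier results of these data known.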

Additional observations from a re-analysis of the deposited data

Results flagged for a closer look

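The ICC of the 2 organs moved in opposite directions from their own SM tissue for both cyclase subunits. *Gucy1a3* had a log2 ratio of −1.47 in jejunal ICC over jejunal SM tissue and of 2.09 in colonic ICC over colonic SM tissue, a difference of −3.56. *Gucy1b3* had a log2 ratio of −1.60 in jejunal ICC and of 1.81 in colonic ICC, each over its tissue, a difference of −3.41. With 1 library on each side the differences were not tested.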

How the results depend on the processing

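No direction of a called ratio reversed under any alternative. Of the recomputed log2 ratios, 875 neither crossed 4-fold nor changed sign, while 22 did one or the other. Not all of the 22 lay near the line or near 0. *Gucy1a3* in jejunal SMCs over ICC went from −1.07 to −3.06 on known transcripts alone. *Prkg1* in mucosal over colonic PDGFRα+ cells went from −1.27 to −2.37 at a cutoff of 1 FPKM. Ratios among the 875 could still change in size. On known transcripts alone, *Gucy1a3* in jejunal SMCs over tissue rests on 0.817 FPKM against 37.2 FPKM. At a 2-fold threshold the number of the 5 genes that differed became 2 in jejunal SMCs, 2 in colonic SMCs, 3 in jejunal ICC, 3 in colonic ICC, 2 in the library labelled jejunal PDGFRα+ cells and 5 in colonic PDGFRα+ cells, each over its tissue. The share of all genes at 2-fold was 12.9% lower and 2.17% higher, 17.6% and 1.72%, 11.6% and 8.11%, 13.3% and 7.67%, 4.69% and 5.23%, and 17.9% and 9% in the same order. At 2-fold it became 2 for jejunal SMCs over ICC, 3 over the labelled jejunal PDGFRα+ library, 5 for colonic SMCs over PDGFRα+ cells, 3 and 2 for jejunal and colonic ICC over PDGFRα+ cells, and 3 for mucosal over colonic PDGFRα+ cells. Beside these, 13.7% of all genes were lower and 7.28% higher, 16.1% and 3.59%, 16.4% and 8.93%, 13.8% and 9.83%, 6.47% and 9.17%, and 8.11% and 14.2%, in that order. With known transcripts only, *Gucy1a3* passed 4-fold in colonic SMCs over tissue (−2.78) and in jejunal SMCs over ICC (−3.06), 1 gene each. With TPM the count was 1 in colonic SMCs over tissue, 2 in colonic PDGFRα+ cells over tissue and 1 in colonic ICC over PDGFRα+ cells. A pseudocount of 0.025 also gave 2 in colonic PDGFRα+ cells over tissue, and 0.025 and 0.1 both gave 1 in colonic ICC over PDGFRα+ cells. With median ratio scaling, *Gucy1a3* in colonic ICC over tissue fell short of 4-fold at 1.88 and the count was 0. A cutoff of 1 FPKM per variant gave 2 for mucosal over colonic PDGFRα+ cells. SMC specificity was above 1 for 3 genes in jejunum against ICC alone, beside 35.8% of all genes, and for 2 against the higher of both cell types, beside 22.2%, and for 1 in colon under either, beside 24.1% and 18.8%. Of the 15 most alike genes, Spearman's rho kept 4, the 8 muscle-layer libraries kept 1, and leaving out the library labelled jejunal PDGFRα+ cells, an alternative chosen after seeing the data, kept 9. Scaling shifted the median log2 ratio of all genes by −0.31 (TPM, jejunal SMCs over ICC) to 0.43 (median ratio, colonic SMCs over ICC). Under the median ratio, *Prkg1* and *Mrvi1* in colonic SMCs over ICC were at 0.19 and 0.27, on the other side of 0. No paired analysis was possible because each condition has 1 library. The absence of counts limits all shares of scarce transcripts.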

Other observations

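The mucosa carried another route to cGMP, the guanylin system of the epithelium. *Guca2a*, which encodes the peptide guanylin, was at 273 FPKM in mucosal PDGFRα+ cells and 971 FPKM in mucosa, and at 3.82 FPKM in colonic SM tissue. Its receptor cyclase *Gucy2c* was at 17.5 FPKM in mucosal PDGFRα+ cells, against 75.8 FPKM in mucosa, and at most 1.19 FPKM in the 8 muscle-layer libraries. The epithelial genes *Muc2* and *Epcam* were at 704 and 144 FPKM in mucosal PDGFRα+ cells, against 3301 and 595 FPKM in mucosa.

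Receptors for natriuretic peptides did not move together between the ICC of both organs, which stand in separate tables. *Npr3*, the receptor that clears these peptides, was at 28.9 FPKM in colonic ICC and 9.59 FPKM in jejunal ICC. *Npr1*, a receptor that makes cGMP, was at 2.45 FPKM in colonic ICC and 14.2 FPKM in jejunal ICC. *Npr2* was at 44.4 FPKM in colonic ICC and 25.8 FPKM in jejunal ICC. *Cav1*, caveolin, which binds nitric oxide synthase of endothelium, was at 614 FPKM in colonic ICC, against 30.5 FPKM in colonic PDGFRα+ cells, and at 654 FPKM in jejunal ICC.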
